A study of Mus musculus with 24 samples.

Results

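miR-31 and miR-31* are the mature products of a single microRNA (miRNA) hairpin, and both were measured in mouse muscle stem cells before and after muscle injury. The assays were found by name among the 584 miRNA assays of the series: mmu-miR-31 in 1 spot of card A, which holds 375 assays, and mmu-miR-31* in 1 spot of card B, which holds 209. The 2 assays therefore never shared an array. Quiescent stem cells form the 0 h group, and stem cells labelled as activated form the groups at 36, 60 and 72 h after injury, all from male C57BL/6 mice aged 8 weeks. Each group has 3 replicates on each card, 24 arrays in all. The submitters call the replicates technical, so every p-value here covers the spread between repeat measurements and not that between mice. The labels name neither a cell sort nor the kind of injury.

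Muscle stem cells, also called satellite cells, rest beneath the sheath of the fibre and start to divide when the muscle is damaged. A miRNA hairpin is cut into a duplex, one strand of which is usually kept by an Argonaute protein and guides it to mRNAs that match its seed, while the other, the passenger or star strand, is mostly degraded. miR-31 has been reported in mouse satellite cells to hold back the translation of the mRNA of Myf5, a transcription factor that commits cells to the muscle lineage. Both strands come from the same precursor, but the amount of each also depends on which strand is loaded and how long it lasts. The precursor and the Myf5 mRNA were not measured on these cards.

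The mature sequences are shown because each strand has its own seed and its own assay, and no other strand shares either seed. In the first pair of lines the capitals mark the seed, bases 2 to 8, and in the hairpin line they mark the mature strands. All are from RefSeq (GRCm38.p6), where both mature names were found.
mmu-miR-31-5p (measured as mmu-miR-31): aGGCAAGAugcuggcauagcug
mmu-miR-31-3p (measured as mmu-miR-31*): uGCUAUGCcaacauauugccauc
Mir31 hairpin: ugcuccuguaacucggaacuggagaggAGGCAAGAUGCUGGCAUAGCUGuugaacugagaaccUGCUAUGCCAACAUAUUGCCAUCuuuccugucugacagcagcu
The Mir31 hairpin lies on the minus strand at chr4:88910557-88910662. The 22 bases of the 5p strand take hairpin positions 28 to 49 (chr4:88910614-88910635), and the 23 bases of the 3p strand take positions 64 to 86 (chr4:88910577-88910599). In the RefSeq gene table the hairpin overlaps the long noncoding RNA Gm49890, and the nearest protein-coding neighbour listed is Ifne, an interferon gene, 30.4 kb away. Of the 1679 mature mouse miRNA names in the sequence table, 0 others carried the seed GGCAAGA of miR-31 and 0 others the seed GCUAUGC of miR-31*.

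Amounts were read as threshold cycles (Ct), the PCR cycle at which an assay's signal crosses a threshold, so that 1 cycle less stands for about 1 doubling of RNA. For a level, the Ct of an assay was subtracted from the average Ct of the 4 spots for U6, a small nuclear RNA, on the same array. Levels are thus on a log2 scale and grow with the amount of RNA. An assay counted as detected at a Ct below 35, and as changed at an adjusted p below 0.05 in the limma fit together with at least a 2-fold difference. Card A arrays detected 181 to 212 assays and card B arrays 89 to 120. In whole-cell RNA of this kind, fewer cells that hold a miRNA and less of it per cell cannot be told apart.

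miR-31 was scarce in quiescent cells and was measured at every time. Its Ct was 30.24, 30.54 and 30.69 on the 3 arrays of quiescent cells (0 h). At 36 h it was 22.66, 22.70 and 22.77, and by 60 h it was 20.56, 20.56 and 20.59. The 72 h arrays gave 21.25, 21.22 and 21.18. No 2 times overlapped. Relative to U6 the level of miR-31 averaged -15.11 ± 0.21 in quiescent cells (0 h). In activated cells it averaged -7.83 ± 0.02 at 36 h, then -5.18 ± 0.03 (60 h) and -6.10 ± 0.08 (72 h), all as log2 mean ± SD with n = 3. The order of the levels was thus 0 h, 36 h, 72 h and 60 h from lowest to highest, with every array of a time on the same side of every array of its neighbour.

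miR-31* was not detected in quiescent cells and was plain at every later time. At 0 h the first array gave a Ct of 37.2, above the detection limit, and the other arrays gave none. At 36 h its Ct was 25.14, 24.92 and 25.26, and by 60 h it was 23.38, 23.19 and 23.20. The 72 h arrays gave 23.94, 24.14 and 23.995. The level relative to U6 averaged -10.39 ± 0.15 (36 h), -7.77 ± 0.11 (60 h) and -8.42 ± 0.13 (72 h; log2, mean ± SD, n = 3 each). These 3 times did not overlap and came in the same order as those of miR-31.

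**Figure D1:**
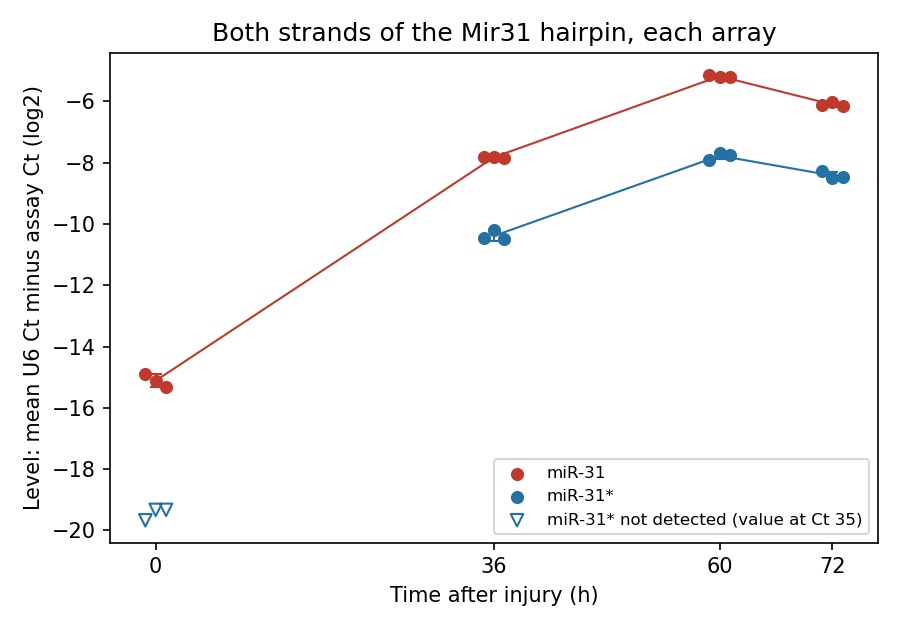
Level of miR-31 (red) and miR-31* (blue) on each array against time after injury, as mean U6 Ct minus assay Ct (log2), with points for arrays and lines and bars for the mean and SD of 3 arrays. Open triangles stand for the 3 arrays at 0 h on which miR-31* was not detected, drawn at Ct 35. Both strands are lowest at 0 h and highest at 60 h, where miR-31 is at -5.18 and miR-31* at -7.77.

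Against quiescent cells, miR-31 rose in activated cells at every time. The log2 change was 7.29 ± 0.09 at 36 h (156-fold, adjusted p = 1.35e-12), 9.93 ± 0.09 at 60 h (979-fold, adjusted p = 2.54e-13) and 9.01 ± 0.09 at 72 h (516-fold, adjusted p = 3.36e-13), each with its standard error from limma and 3 arrays in either group. Assays called higher made up 44.1% of those tested at 36 h, 28% at 60 h and 20.9% at 72 h, so that a call as such was common and the size of the change is what set miR-31 beside the others. miR-31 ranked 3 of 272 tested assays by change at 36 h, below miR-223 (7.65), a miRNA of myeloid blood cells. It ranked 1 of 250 at 60 h and 1 of 244 at 72 h, and the next assay each time was miR-182, from the miR-183 cluster known from sensory cells, at 8.69 and 7.74. These ranks leave out assays detected on fewer than 2 arrays at 0 h, so miR-31 need not have risen most on the cards. Bounds formed as below put some of them above miR-31: miR-18a at 36 h (9.61), miR-374 at 60 h (11.73) and miR-31* at 72 h (11.02).

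A normalizer shifts all assays of an array by the same amount. That the rank of either strand within its card was the same under all 5 normalizers therefore follows from the method and is not a test. Among the tested assays of card A, miR-31 ranked 3 of 177 at 36 h, 1 of 168 at 60 h and 1 of 166 at 72 h against 0 h. Its change exceeded the median change of the tested card A assays by 6.38 at 36 h, 10.43 at 60 h and 10.38 at 72 h (log2). The median assay itself was at 0.91, -0.49 and -1.37 at these times.

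miR-31* could not be tested against 0 h, and its rise is given as a bound with the 0 h arrays set to Ct 35. Relative to U6 it was at least 532-fold higher at 36 h, at least 3261-fold at 60 h and at least 2082-fold at 72 h than at 0 h (log2 9.05, 11.67 and 11.02). The lowest bounds under the 5 normalizers were those with Y1, at least 260-fold, 2728-fold and 1260-fold, and the highest were those with snoRNA202, at least 1145-fold, 19046-fold and 12707-fold. Of the assays detected in all 3 replicates of the later time and in at most 1 at 0 h, miR-31* ranked 4 of 45 at 36 h, 2 of 28 at 60 h and 1 of 26 at 72 h by this bound. The 0 h value is the same for every assay of a card. These ranks thus order the later levels of assays picked for their absence at 0 h, and not measured rises. At 60 h the assay above it was miR-374 (11.73), and at 72 h miR-374 came next (10.11). The bound for miR-31* at 60 h lies above the measured change of miR-31 (9.93), but the strands were read on different cards.

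**Figure D2:**
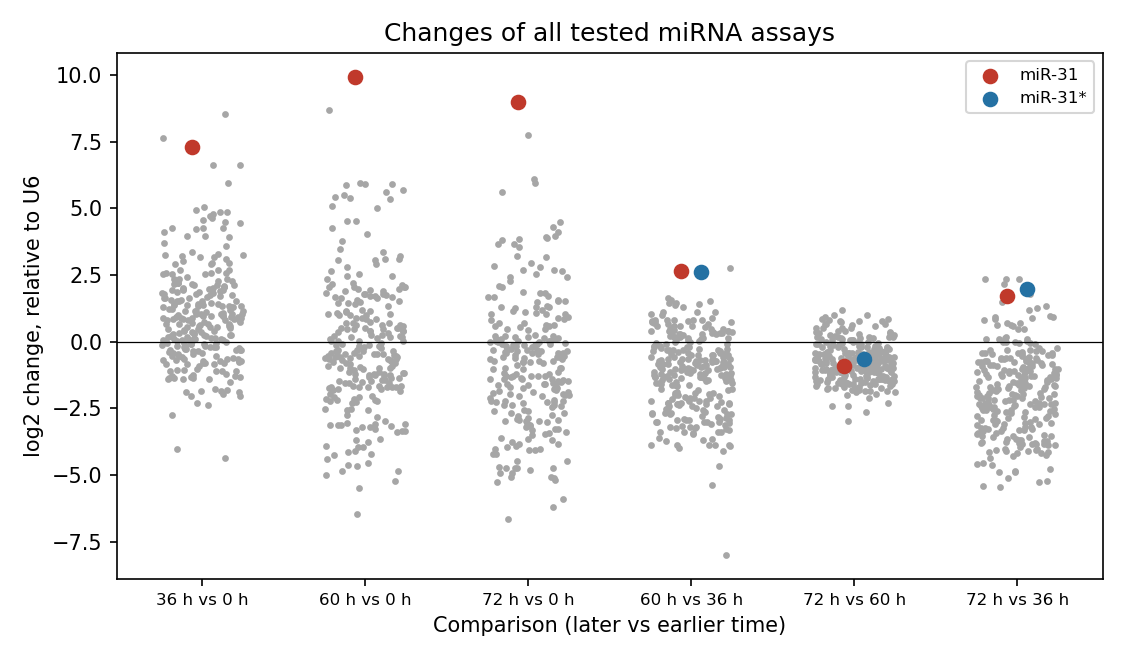
Change of every tested miRNA assay (grey points, spread sideways at random) in each comparison of a later with an earlier time, on the log2 scale relative to U6, with miR-31 in red and miR-31* in blue. miR-31 is the highest point at 60 h and 72 h against 0 h, and both strands stand above nearly all assays at 60 h against 36 h, at 2.65 and 2.62.

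The comparison of 60 h with 36 h asked whether the levels still moved once the cells were activated. miR-31 rose by a further 2.65 ± 0.09 (6.26-fold, adjusted p = 1.99e-09), with levels from -5.20 to -5.15 at 60 h, against -7.85 to -7.80 at 36 h. miR-31* rose by 2.62 ± 0.14 (6.13-fold, adjusted p = 1.94e-07), with levels from -7.90 to -7.67 at 60 h, against -10.49 to -10.21 at 36 h. Only 5.38% of 279 tested assays were called higher here and 49.5% were called lower. The strands ranked 2 and 3 of the 279 by change, below miR-182 (2.75) and above miR-133b (1.65), a muscle-enriched miRNA.

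Within its own card the placing was as high. miR-31* ranked 1 of 95 tested card B assays at 60 h against 36 h, ahead of the muscle-enriched miR-206 (1.56), and miR-31 ranked 2 of 184 on card A. The median change was -0.74 on card B and -1.27 on card A. The share of assays called higher was 33.7% with snoRNA202, 26.9% with the average of all assays found on every one of the 12 arrays (the global mean), 16.5% with Y1 and 5.38% with snoRNA135 as normalizer, and both strands were called higher under each of them.

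At 72 h against 36 h both strands were also higher. miR-31 rose by 1.72 ± 0.09 (3.30-fold, adjusted p = 3.42e-08) and miR-31* by 1.97 ± 0.14 (3.92-fold, adjusted p = 9.86e-07), while 4.07% of 270 tested assays were called higher and 69.3% lower. They ranked 7 and 5 of 270, and within their cards 5 of 181 and 2 of 89. With the global mean as normalizer 28.1% of assays were called higher, and with snoRNA202 25.9%.

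Between 72 h and 60 h neither strand passed the minimum fold. The log2 difference was -0.92 ± 0.09 for miR-31 (adjusted p = 1.14e-05) and -0.65 ± 0.14 for miR-31* (adjusted p = 0.00262), although the replicates of the times did not overlap for either strand. Each lay close to its own card's median, which was -0.87 on card A and -0.59 on card B, and in this comparison 35.8% of 265 assays were called lower and 0.755% higher. The difference of miR-31 was -0.05 with the global mean (adjusted p = 0.700), -0.28 with snoRNA202 and -0.40 with snoRNA135. That of miR-31* was -0.22 with the global mean, and with Y1 it was -1.11 and was called lower. The size of this difference, and for miR-31* its call, thus depended on the normalizer.

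**Figure D3:**
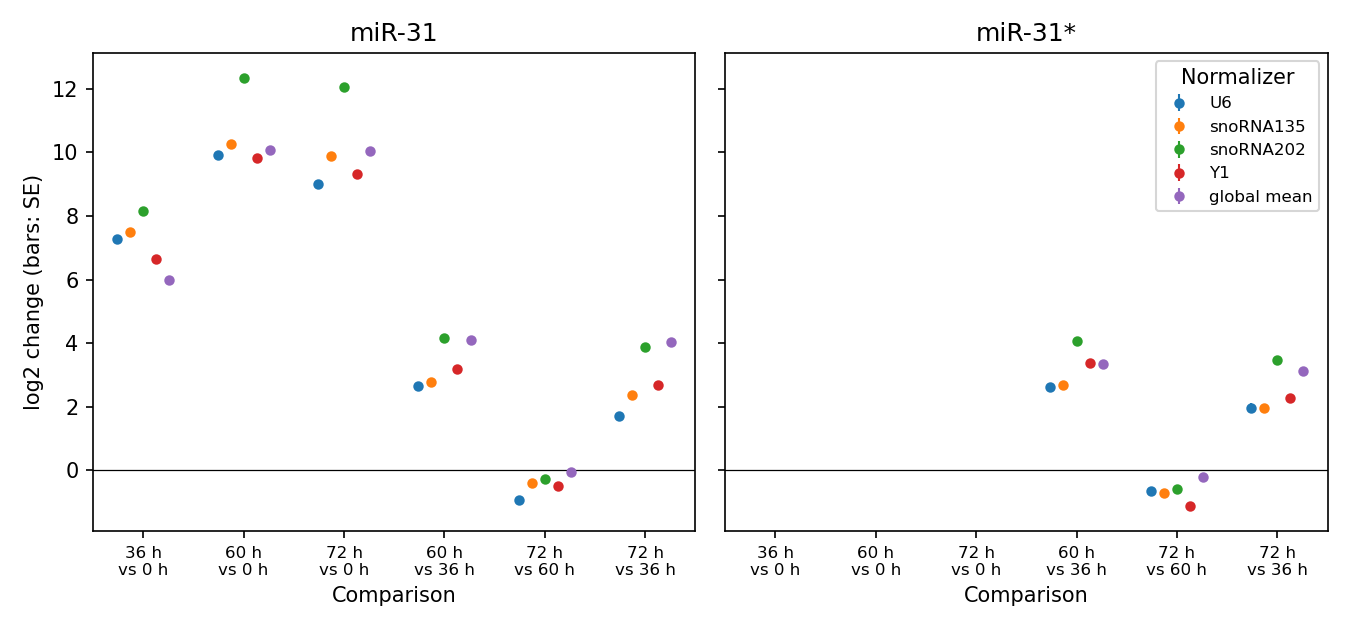
Change of miR-31 (left) and miR-31* (right) in each comparison under 5 normalizers, on the log2 scale with standard errors as bars. miR-31* has no points against 0 h because it was not detected there. Under all 5 normalizers miR-31 stays above 1 against 0 h, and both strands do so against 36 h, while those of 72 h against 60 h lie between -1.11 and -0.05.

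The control RNAs show how far the normalizer matters. Relative to U6 on card A, snoRNA202 changed against 0 h by -0.88 (36 h), -2.40 (60 h) and -3.05 (72 h), and Y1 by 0.65, 0.11 and -0.32 (log2). Across the 5 normalizers the change of miR-31 against 0 h ran from 6.00 to 8.17 at 36 h, 9.83 to 12.34 at 60 h and 9.01 to 12.06 at 72 h. The lowest values were those with the global mean at 36 h, Y1 at 60 h and U6 at 72 h, and the highest each time was that with snoRNA202. The split of all calls into higher and lower was 120 and 33 under U6, against 59 and 89 under the global mean, at 36 h against 0 h. It was 70 and 91 under U6 and 179 and 20 under snoRNA202 at 60 h, and 51 and 112 under U6 and 166 and 24 under snoRNA202 at 72 h.

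The difference between the strands tells whether one changed more than the other. It was formed as the level of miR-31 minus that of miR-31* on the arrays of the same replicate number, and it was 2.66, 2.39 and 2.65 at 36 h, 2.75, 2.48 and 2.55 at 60 h, and 2.143, 2.496 and 2.313 at 72 h (log2). The ranges of the 3 times overlapped. Since each assay amplifies with its own efficiency, the size of about 2.5 is not a ratio of molecules, and only its change between times can be read.

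The change of the strand difference was not called in any of the 3 comparisons that could be tested. At 60 h against 36 h the strand difference moved by 0.03 ± 0.16, with a 95% interval from -0.34 to 0.40 (limma over 41 hairpins, adjusted p = 0.888). At 72 h against 60 h it moved by -0.28 ± 0.16 (-0.65 to 0.10, adjusted p = 0.199), and at 72 h against 36 h by -0.25 ± 0.16 (-0.62 to 0.12, adjusted p = 0.238). Among all hairpins with both strands tested, 24.4% were called at 60 h against 36 h, 5.56% of 36 at 72 h against 60 h and 36.1% of 36 at 72 h against 36 h. Of the 41 hairpins at 60 h against 36 h, 1 had a smaller change of its strand difference, in either direction, than Mir31. This count holds for U6 alone, since the change of Mir31 was 0.76 with the global mean. By signed change Mir31 ranked 15 of the 41.

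Other hairpins did show strands that parted at 60 h against 36 h. For miR-376b, of the imprinted Dlk1-Dio3 locus, the strand difference moved by 2.89 ± 0.18 (adjusted p = 3.79e-07), as its starred strand changed by -3.21 and its named strand by -0.32. At the other end, that of miR-467b moved by -1.996 ± 0.50 (adjusted p = 0.0109), that of miR-26b by -1.80 ± 0.16 (adjusted p = 9.05e-06) and that of let-7g by -1.53 ± 0.39 (adjusted p = 0.00905). miR-503 (1.27 ± 0.31, adjusted p = 0.0107) was called and miR-17 (1.23 ± 0.46, adjusted p = 0.0526) was not. Like Mir31, these hairpins have their strands on different cards, so the normalizer enters their changes too. The calls given here are those with U6.

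Because the strands sit on different cards, a shift between cards enters the strand difference. The control RNAs snoRNA135, snoRNA202, U87 and Y1 are on both cards, and their change on card A minus that on card B ran from -0.27 to 0.23 at 60 h against 36 h, from -0.90 to -0.39 at 72 h against 60 h and from -0.67 to -0.65 at 72 h against 36 h. The hairpins with the named strand on card A and the starred strand on card B had a median change of -0.27, -0.30 and -0.25 in these comparisons. The sign of the strand difference at 72 h depended on the normalizer: against 60 h it was 0.30 with snoRNA202, 0.31 with snoRNA135, 0.62 with Y1 and 0.17 with the global mean. Against 36 h it was 0.42, 0.40, 0.42 and 0.93. At 60 h against 36 h it was 0.12, 0.09, -0.20 and 0.76. The values with an adjusted p below 0.05 were 0.62, the 4 against 36 h and 0.76, and 0 of the 12 reached 2-fold.

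**Figure D4:**
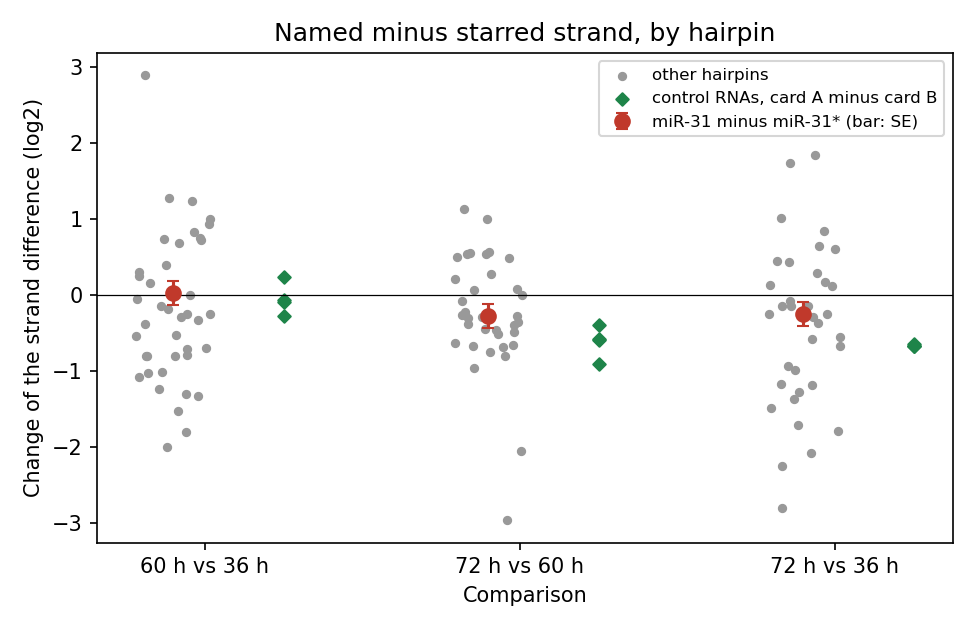
Change of the difference between named and starred strand (log2) in the comparisons among later times, with the Mir31 hairpin in red and its standard error as a bar, the other hairpins in grey and 4 control RNAs, card A minus card B, in green. Mir31 is at 0.03, -0.28 and -0.25, near the middle of the hairpins.

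The authors' deposited tables give another picture for the star strand at 36 h. The constant that the authors' deposited table subtracts from Ct on card B at 36 h was 16.97, whereas the U6 spots of those arrays averaged 14.71. At 0 h and 60 h the constants, 15.56 and 15.48, matched the U6 means of 15.56 and 15.48, as they did on card A. By dCt, the authors' deposited table puts miR-31* only 0.36 higher at 60 h than at 36 h (log2), against 2.62 with the U6 of each array. For miR-31 on card A the authors' deposited table gives 2.64, against 2.65 here. The deposited mean fold changes against day 0 in the authors' deposited table were 157 and 985 for miR-31 at 36 h and 60 h, and 58953 and 77050 for miR-31*, the last pair resting on 0 h wells without a Ct being entered as 40.

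The assays whose levels followed miR-31 most closely were named by Pearson's r over the 12 card A arrays, among 151 other assays detected on all of them. They were miR-182 (r = 0.988), miR-133b (0.982), the rat assay of miR-1 (0.976), miR-17 (0.963) and miR-106a (0.963), against a median r of -0.35. The 12 points share 4 times, the U6 spots and 3 arrays a time, so r mostly describes the 4 group means. miR-182 came nearest in size, with changes of 5.94, 8.69 and 7.74 against 0 h at 36, 60 and 72 h. It also had the step most like that of miR-31 between 36 h and 60 h (2.75). The level of miR-182 at 0 h was -18.15, against -15.11 for miR-31, so its changes against 0 h start closer to the detection limit. miR-133b and the rat miR-1 assay, both of muscle-enriched miRNAs, had their highest mean at 72 h. The mouse miR-1 assay did not share this course relative to U6, with changes of 2.97, 1.70 and 2.56 against 0 h. At 60 h against 36 h it was called lower with U6 (-1.27) and with snoRNA135 (-1.15). It was not called with snoRNA202 (0.26), the global mean (0.18) or Y1 (-0.73). miR-17 and miR-106a, which belong to clusters that promote cell division and have near-identical sequences, differed by 0.74 and 0.79 at 60 h against 36 h, below the minimum fold, although both were called higher with Y1, snoRNA202 and the global mean.

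**Figure D5:**
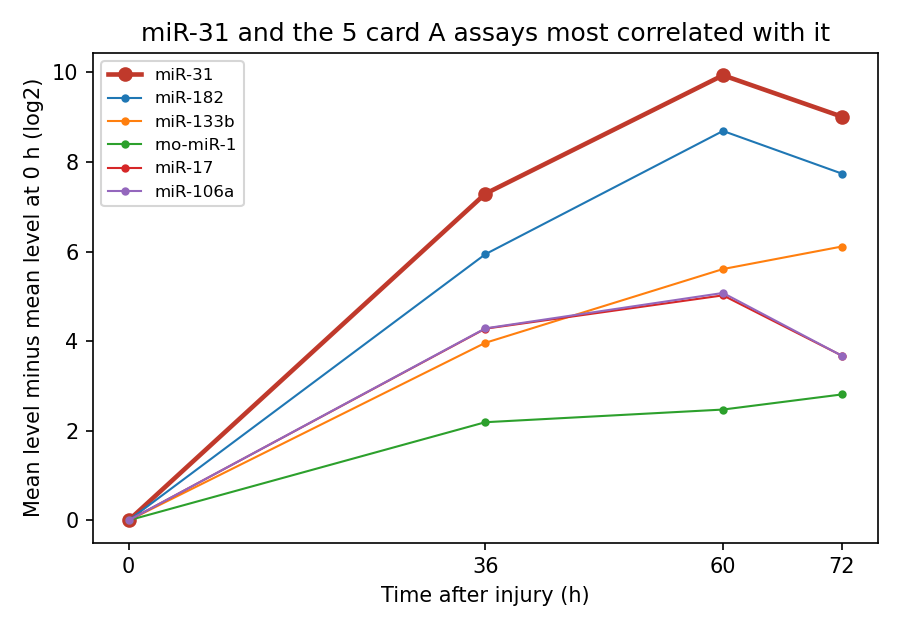
Mean level of miR-31 (thick red line) and of the 5 card A assays most correlated with it, as the difference from each assay's own mean at 0 h (log2), against time after injury. At 60 h miR-31 is at 9.93 and miR-182 at 8.69, and the others lie between 2.47 and 5.61.

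For miR-31* the search ran over the 9 card B arrays at 36, 60 and 72 h and 81 other assays. The 5 assays with the highest r were miR-805 (0.989), miR-149 (0.931), miR-130b* (0.905), miR-678 (0.896) and miR-378 (0.883), with a median r of -0.62 over the 81. Their steps at 60 h against 36 h were smaller than the 2.62 of miR-31*: 1.32 for miR-805, 0.81 for miR-149, 0.81 for miR-130b*, 0.77 for miR-678 and 0.38 for miR-378. These points share 3 times and the U6 of their arrays.

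Other miRNAs reported to act in muscle stem cells moved in both directions. The list held 12 miRNAs. It included miR-133a and miR-133b, miR-27a and miR-27b, reported against Pax3, and miR-1, miR-206 and miR-486, reported against Pax7. The others were miR-489, miR-195 and miR-497, linked to quiescence, and miR-221 and miR-222, reported against the cell cycle inhibitor p27. miR-486 was not detected at any time. Of the 11 tested, 6 rose and 1 fell at 36 h, 7 rose and 4 fell at 60 h, and 5 rose and 4 fell at 72 h against 0 h, with a median change of 1.92, 1.70 and 0.44. The medians of all tested assays were 0.82, -0.37 and -0.77, and the shares called higher were the 44.1%, 28% and 20.9% given above, with 12.1%, 36.4% and 45.9% called lower.

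The largest changes in that list at 60 h against 0 h were smaller than that of miR-31. miR-133b was at 5.61 ± 0.11, miR-221 at 5.52 ± 0.09, miR-489 at -4.85 ± 0.16 and miR-195 at -2.58 ± 0.06 (log2, all called). With snoRNA202 the call of miR-195 was lost (-0.17), and the list at 60 h then had 8 higher and 1 lower, where 71.6% of all assays were called higher and 8% lower. At 36 h the list had 10 higher and 0 lower under snoRNA202, against 3 and 1 under the global mean, with 66.2% and 21.7% of all assays called higher under these normalizers. At 60 h against 36 h, where both miR-31 strands rose, 2 of the 11 were higher (miR-133b and miR-206) and 6 were lower, beside 5.38% and 49.5% of all assays. Under snoRNA202 5 were higher and 2 lower, beside 33.7% and 19.4%.

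miRNAs known from other cell types moved over the same times. The 6 leukocyte-enriched assays had a summed level of -5.38 to -5.34 at 0 h, -3.72 to -3.65 at 36 h, -6.57 to -6.44 at 60 h and -7.42 to -7.28 at 72 h (log2 relative to U6). Of the 5 tested, 4 were higher at 36 h against 0 h, where 44.1% of all assays were, and 5 of 6 were lower at 60 h against 36 h, where 49.5% were. At 60 h against 0 h 3 of 5 were higher, namely miR-142-3p (5.91), miR-223 (4.06) and miR-155 (1.91), and miR-150 was lower (-3.67), beside 28% and 36.4% of all assays. These leukocyte assays were named after their values were seen. miR-142-5p was the leukocyte assay not detected at 0 h. The 2 endothelial strands of miR-126 summed to -4.52 to -4.44, -2.29 to -2.28, -6.28 to -6.19 and -6.42 to -6.40 at these times. Both were higher at 36 h against 0 h (44.1% of all assays) and both lower at 60 h against 36 h (49.5% of all). With the global mean, which called 21.7% of all assays higher, neither was called at 36 h.

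The 4 mesenchymal and smooth muscle assays summed to -3.23 to -3.11 at 0 h, -2.76 to -2.70 at 36 h, -6.16 to -6.13 at 60 h and -6.82 to -6.75 at 72 h. Of them 3 were higher at 36 h against 0 h, beside 44.1% of all assays, and 4 of 4 were lower at 60 h against 36 h, beside 49.5%. Of the 7 epithelial assays, a list of interest because miR-31 is also known from epithelia, miR-200a, miR-200b, miR-141 and miR-429 were detected at no time, and the summed level was -9.22 to -9.05 at 0 h, -8.75 to -8.59 at 36 h, -10.91 to -10.78 at 60 h and -12.25 to -12.04 at 72 h. At 0 h and 60 h miR-203 was the 1 epithelial assay detected, and it alone was tested. It was not called at 36 h against 0 h (0.44). At 60 h it was called lower against 36 h (-2.13) and 0 h (-1.68), as were 49.5% and 36.4% of all assays. With snoRNA202 it was called higher at 36 h and neither call at 60 h held. With the global mean the call against 36 h was lost. The erythroid miR-451 was not detected at 0 h and was at -14.07 to -12.99 at 36 h. The 4 muscle-enriched assays were detected on all arrays. They summed to -4.04 to -3.70 at 0 h, -3.35 to -3.24 at 36 h, -1.77 to -1.75 at 60 h and -1.02 to -0.94 at 72 h. These assays did not move alike. At 36 h against 0 h 3 were called higher, beside 44.1% of all assays: miR-133b (3.96), miR-1 (2.97) and miR-133a (1.92). The change of miR-206 was 0.48 and was not called. Relative to U6, the summed leukocyte, endothelial, mesenchymal and epithelial levels were highest at 36 h and lower at 60 h than at 0 h. Single assays differed from these sums. The 3 leukocyte assays named above were higher at 60 h than at 0 h. Of the 4 mesenchymal assays, 3 were called lower at 60 h against 0 h, beside 36.4% of all assays, and miR-199a-3p was not called (0.19). At 36 h against 0 h the mesenchymal miR-145 was at -0.33 and was not called. Both miR-31 strands were highest at 60 h. At 60 h against 0 h the comparison with quiescent cells depended on the normalizer, since with snoRNA202 0 endothelial assays were called, and 1 mesenchymal assay was called in either direction. At 60 h against 36 h the 2 endothelial and 4 mesenchymal assays were called lower under all 5 normalizers, and of the leukocyte assays 4 or 5 were. With U6 miR-155 was the leukocyte assay not called (-0.10). With snoRNA202 and with the global mean 1 leukocyte assay was called higher, beside 33.7% and 26.9% of all assays. The part of these cells in the rise of miR-31 was not tested.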

How the data were processed

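The labels describe total RNA run on TaqMan rodent microRNA cards A and B. Per the file headers, each array's deposited file holds a Ct per spot, on an inverse log2 scale, with "null" where none was determined. The sources used here do not give the software and threshold behind Ct. For each card the authors further deposited a table of dCt (log2) and fold change against day 0 (a ratio). Its last time point reads day 3.5 where the labels say 72 h, and times here follow the labels. Of their per-sample columns, 66 were left unused. Card type was read from the assay names.

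Spots of 1 assay were averaged. Levels were fitted with limma 3.58.1 in R 4.3.3 (lmFit, eBayes), 1 fit per card over 12 arrays, for assays with at least 2 detected replicates in both groups, with Benjamini-Hochberg adjustment over both cards. Errors given as ± after a change are standard errors. Strand differences were fitted likewise over hairpins. The fit was tested on simulated data. Arrays give no read depth, and the number of arrays limits the precision. The members and lists were chosen with earlier results of these data known. Named assays were the 5 highest correlations on the member's card, the neighbours in rank, the 3 hairpins at either end and the 4 largest changes of the regulator list. Other normalizers, detection limits, spot summaries, left-out replicates, a replicate block and eBayes with a trend were tried. No 2 arrays held identical values (0 pairs).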

Additional observations from a re-analysis of the deposited data

How the results depend on the processing

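miR-31 against 0 h, and both strands at 60 h and 72 h against 36 h, were called higher in 22 of 22 alternatives each. Many of these could not move the change itself. Each strand has 1 spot, so the spot summary left it as it was. So did the detection limits, the U6 mean of the group and left-out replicates of times outside the comparison. Leaving out 1 replicate gave 9.83 to 10.04 for miR-31 at 60 h against 0 h. The difference of miR-31* at 72 h against 60 h was called only with Y1 (-1.11). The bounds for miR-31* at 36, 60 and 72 h against 0 h were 14.05, 16.67 and 16.02 with undetected wells at Ct 40, 10.16, 14.22 and 13.63 with snoRNA202, 9.40, 12.07 and 11.37 with snoRNA135, and 8.02, 11.41 and 10.30 with Y1, and 8.28 and 11.39 at 36 h and 72 h with the global mean. At Ct 40 as the detection limit 1 of 3 arrays at 0 h counted, so no test arose. The strand difference turned its sign at 72 h against 60 h with snoRNA202 (0.30), snoRNA135 (0.31), Y1 (0.62) and the global mean (0.17), at 72 h against 36 h with the same normalizers (0.42, 0.40, 0.42 and 0.93), and at 60 h against 36 h with Y1 (-0.20), where leaving out 1 replicate gave -0.060 to 0.085, with -0.060 without replicate 2 of 36 h and -0.050 without replicate 1 of 60 h. With a control RNA in place of U6, the strand difference shifts by that RNA's own change on card A minus card B, which was given above. Why U6 and the control RNAs differed between the cards was not tested. The assays called at 72 h against 60 h numbered 97 with U6, 46 with snoRNA202, 59 with snoRNA135 and 42 with the global mean.

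Same-numbered replicates did not deviate together throughout: the correlation of their deviations from the group means ran from -0.27 to 0.36 on card A and from -0.43 to 0.49 on card B. Of 12 pairs of card and comparison, 1 had all 3 correlations above 0.1 (card B at 60 h against 0 h, 0.34 to 0.49, where miR-31* was not tested) and 2 had all 3 below -0.1 (card B at 36 h against 0 h and at 60 h against 36 h). The numbers were therefore not taken to pair arrays of different times. The strand difference did match card A with card B arrays by these numbers, a match that the correlations do not cover. That match sets the spread of the Mir31 strand difference and not its mean. With the replicate block miR-31 at 60 h against 0 h stayed at 9.93 (adjusted p = 7.54e-11), miR-31* at 60 h against 36 h at 2.62 (adjusted p = 4.84e-06), the count of calls at 72 h against 0 h was 162 in place of 163, and no call of either strand changed. Arrays limit the result by their number and by the Ct of miR-31* at 0 h, which is above the detection limit or missing.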
